A study of Mus musculus with 30 samples.

Results

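Small leucine-rich proteoglycans are secreted proteins of the extracellular matrix with a core of leucine-rich repeats. Many carry chondroitin, dermatan or keratan sulfate chains, bind fibrillar collagen and limit fibril width, and several hold growth factors in the matrix. In the arterial wall decorin and biglycan are the best known, biglycan in particular for its binding of lipoproteins and decorin for its binding of transforming growth factor beta. The 10 genes described here were Dcn, Bgn and Aspn (decorin, biglycan and asporin, the decorin group), Fmod, Lum, Prelp, Omd and Kera (fibromodulin, lumican, prolargin, osteomodulin and keratocan, the fibromodulin group), and Ogn and Epyc (osteoglycin and epiphycan, the osteoglycin group). They were chosen by name, and in part because Ogn was already seen to fall under PDGF-BB, so their values in that comparison are given as a description. All 10 had an identifier among the 78334 of the count table. Of these, 8 passed the filter on low counts in both sequencing runs, and Aspn and Kera did not.

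RNA was sequenced from 30 libraries in 9 groups of cultured wild type mouse aortic smooth muscle cells. The study asked what the long noncoding RNA CASC15 does in these cells. All groups had been kept without serum for 48 h and transfected for at least 24 h. Run 3 held 5 groups of 4 libraries: a control antisense oligonucleotide (a GapmeR, which directs cleavage of the RNA it binds) without treatment, with PDGF-BB (a platelet-derived growth factor, 10 to 30 ng/ml) or with angiotensin II (10 ng/ml), each for 24 h, and knockdown of long CASC15 without treatment or with angiotensin II. Run 2 held untreated cells with the control antisense oligonucleotide (n = 2), with antisense oligonucleotides labelled as knocking down total CASC15 (n = 2), with a control plasmid (n = 3) or with a plasmid for overexpression of total CASC15 (n = 3). Sample titles count the target upward, from CASC15 to CASC22 over replicates of knockdown and overexpression (CASC19 to CASC22 for long knockdown without treatment), and libraries were grouped by the library names, which give the same target in every replicate of a group. Each library also has a batch label, P16 to P19, and each batch holds at most 1 library of a group. The labels give no strain, age or sex, mention rat cells beside mouse cells in the culture protocol, and do not say whether replicates came from separate animals or cultures, so p-values measure the spread between these libraries.

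Libraries held 15771489 to 30362053 expected counts. The target was read from 2610307P16Rik, a gene beside Sox4, and the assignment of CASC15 to it rests on that position and on how high it stood once CASC15 was overexpressed, so that rise is no separate check. It stood at 5.52 ± 0.53 CPM (counts scaled to library size, SD, n = 4) in untreated controls of run 3 and at 2.87 ± 0.561 under long knockdown (edgeR adjusted p = 0.000832). Under PDGF-BB, without knockdown, it was also below every untreated control, at 3.61 ± 0.831 CPM (log2 fold change -0.62, edgeR adjusted p = 0.0101). A lower target was therefore not particular to the knockdown. It rose from 6.42 ± 2.34 to 716 ± 174 CPM with overexpression (n = 3 each, edgeR adjusted p = 1.88e-05). In the libraries labelled total CASC15 knockdown it stood at 9.01 ± 1.02 CPM against 7.02 ± 0.913 in their controls (n = 2 each, edgeR adjusted p = 0.739), so the target goes against that label. Of 6 smooth muscle markers, Acta2 was the highest in every group, and Myh11 and Cnn1, markers of the contractile state, were at 3 counts or fewer in each untreated control of run 3. Endothelial markers summed to at most 9.94 CPM in any library. Bulk RNA cannot tell fewer cells of a type from less RNA per cell.

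Levels of different genes were compared per length, as CPM per kilobase of the longest annotated transcript. In untreated controls of run 3 the order from high to low was Bgn, Dcn, Ogn, Prelp, Omd, Fmod, Epyc, Lum, Aspn and Kera. Bgn reached 1054 ± 42.3 CPM per kilobase and Dcn 339 ± 21.7 (SD, n = 4), so these 2 genes of the decorin group led by a wide margin. Ogn followed at 81.6 ± 9.81, Prelp at 24.3 ± 1.55, Omd at 12.6 ± 1.01 and Fmod at 3.12 ± 0.291 CPM per kilobase. Down to Fmod the ranges of neighbours in this order did not overlap. Epyc ranged from 0.413 to 0.609 and Lum from 0.292 to 0.553 CPM per kilobase, so their ranges overlapped. Aspn, a collagen-binding member without the usual sugar chain, reached at most 16 counts in any of the 30 libraries and was at 0 in 7. Kera, the keratan sulfate proteoglycan of the cornea, reached at most 5 counts and was at 0 in 15. A count of 0 allows up to 3 counts, which were worth 0.101 to 0.19 CPM across libraries (counting error only).

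The order changed in some groups, as the plot of levels per length shows. Under PDGF-BB Prelp (9.55 to 14.6 CPM per kilobase) and Ogn (9.46 to 12.3) overlapped, where Ogn had stood clear of Prelp without treatment. Under long CASC15 knockdown the mean of Lum (1.56 CPM per kilobase) was above that of Epyc (0.596), with overlapping ranges. In run 2 the antisense controls had Fmod (10.4 to 12.3 CPM per kilobase) above Omd (4.96 to 5.43). In the libraries labelled total CASC15 knockdown the range of Ogn (46.5 to 73.1) enclosed that of Prelp (59.0 to 60.1 CPM per kilobase), and their order turns with mean transcript length in place of the longest. With mean length the order of Omd and Fmod also turns for the control plasmid. For overexpression Epyc then moves from below Kera and Aspn to above them. Levels were not tested between runs.

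**Figure D1:**
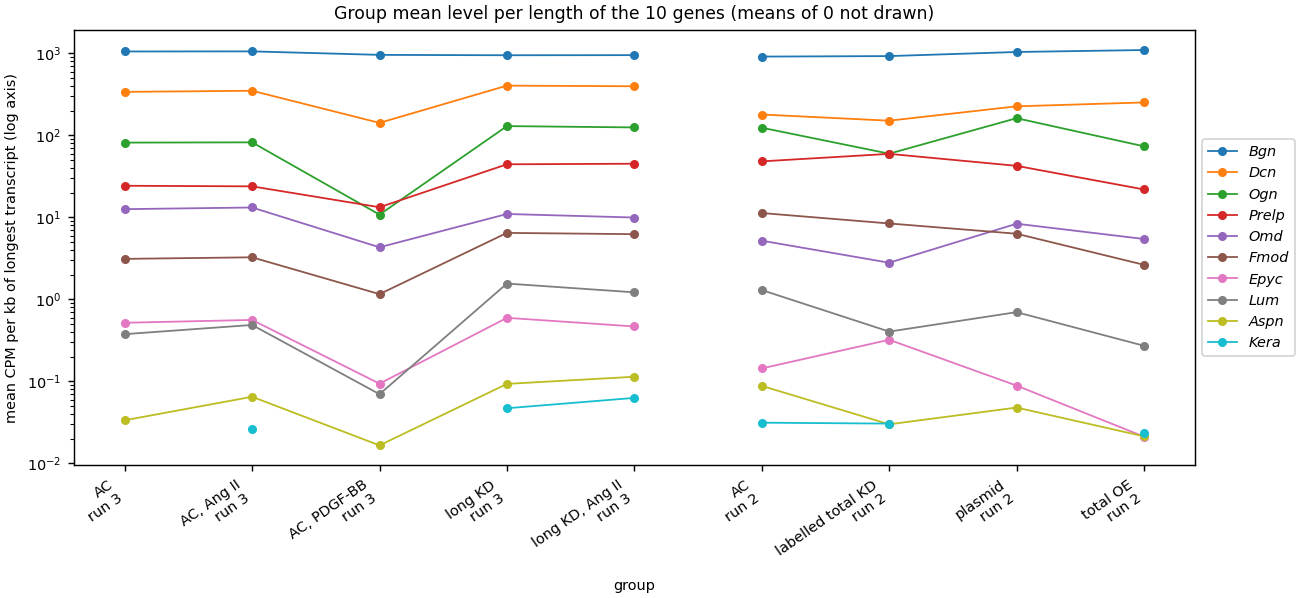
Group mean level of the 10 genes, in CPM per kilobase of the longest transcript on a log axis, for the 5 groups of run 3 and the 4 of run 2 (AC, antisense control; KD, knockdown; OE, overexpression; means of 0 not drawn, lines join groups of a run). Bgn stays between 913 and 1098, while Ogn runs from 10.8 under PDGF-BB to 162 with the control plasmid.

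Together the 10 genes took 0.474% ± 0.0167 of scaled counts in untreated controls of run 3 (SD, n = 4), 0.331% ± 0.0361 under PDGF-BB and 0.497% ± 0.0283 under long knockdown. Dcn and Bgn held 84.8% to 97.4% of these counts in each library. The ratio of Bgn to Dcn counts, a quantity without length correction, was 1.77 ± 0.152 in untreated controls, 3.9 ± 0.609 under PDGF-BB and 1.35 ± 0.246 under long knockdown.

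Promoter windows of 250 bases before the RefSeq start site (GRCm38.p6) are shown for a gene that moved in several comparisons (Ogn), for its neighbour on chromosome 13 (Omd), for a gene that rose without overlap in both long knockdown comparisons (Fmod) and for a gene called in none of the comparisons (Bgn). RefSeq windows were held for 8 of the 10 genes. Short motifs were searched on both strands, and the share of all 27025 windows of this length that hold each is given. The TATA box was spelled TATAAA and occurs in 13% of them. The AP-1 motif, bound by Fos and Jun proteins, was spelled TGANTCA and occurs in 6.87%. The TEAD motif was spelled GGAATG and occurs in 12.6%. The SOX motif was spelled ACAAAG and occurs in 16.5%. The SP/KLF motif was spelled GGGCGG and occurs in 32.9%. The CArG box, bound by serum response factor, occurs in 1.4%. Capitals mark matches, and each window, all on the plus strand, is written 5′ to 3′.
Ogn, chr13:49607765-49608014: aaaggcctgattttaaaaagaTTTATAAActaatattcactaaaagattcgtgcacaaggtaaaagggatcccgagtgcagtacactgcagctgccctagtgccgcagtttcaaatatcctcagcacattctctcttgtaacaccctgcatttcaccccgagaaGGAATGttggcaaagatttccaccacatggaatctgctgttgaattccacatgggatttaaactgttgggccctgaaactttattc
Omd, chr13:49582212-49582461: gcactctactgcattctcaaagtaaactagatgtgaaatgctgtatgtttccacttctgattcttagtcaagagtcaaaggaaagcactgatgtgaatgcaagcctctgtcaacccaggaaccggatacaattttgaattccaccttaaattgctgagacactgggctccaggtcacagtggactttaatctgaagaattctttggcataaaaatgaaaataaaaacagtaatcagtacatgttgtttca
Fmod, chr1:134037004-134037253: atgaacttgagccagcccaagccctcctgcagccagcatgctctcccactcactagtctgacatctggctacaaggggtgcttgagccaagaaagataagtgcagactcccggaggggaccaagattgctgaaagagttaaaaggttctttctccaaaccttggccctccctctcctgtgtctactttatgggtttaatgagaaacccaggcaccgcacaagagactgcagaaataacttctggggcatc
Bgn, chrX:73483351-73483600: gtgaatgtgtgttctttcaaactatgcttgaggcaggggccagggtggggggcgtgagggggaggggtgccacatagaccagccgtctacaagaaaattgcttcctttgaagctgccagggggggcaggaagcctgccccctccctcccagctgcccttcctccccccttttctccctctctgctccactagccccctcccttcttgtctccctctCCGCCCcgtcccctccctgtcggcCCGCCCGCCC
The Ogn window held 1 TEAD motif, starting 86 bases before the start site, and 2 overlapping TATA box matches starting 229 and 227 bases before it. The Bgn window held 3 SP/KLF matches, 34, 10 and 6 bases before the start site, the last 2 overlapping, and was 64.4% G and C against 42.0% for Ogn. None of the 6 motifs occurred in the Omd and Fmod windows, which says only that these letters are not there.

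PDGF-BB makes smooth muscle cells divide and lose contractile genes. Of the 8 genes tested, 7 were called lower under PDGF-BB and 0 higher, where 20% of all 15103 genes tested were called lower and 23.6% higher; this comparison was used in choosing the genes, so nothing is read from the count. The median log2 fold change was -1.49 for the 8 genes and -0.02 for all genes. In the decorin group, Dcn stood at 1442, 1646, 1663 and 1618 CPM in untreated controls of batches P16 to P19 and at 578, 753, 764 and 563 CPM under PDGF-BB. All 4 treated libraries lay below all 4 controls, a log2 fold change of -1.26 (SE 0.107). Bgn stood at 2859, 2915, 2811 and 2653 CPM without treatment and at 2762, 2705, 2613 and 2140.3 CPM with it. These ranges overlapped, and the log2 fold change was -0.14 (SE 0.0791).

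In the fibromodulin group all 4 tested genes had treated libraries below every control. Fmod, which binds collagen I and is modified with keratan sulfate, went from 8.48, 10.1, 10.6 and 9.75 CPM to 3.81, 4.67, 3.85 and 2.09 CPM, a log2 fold change of -1.43 (SE 0.172). Prelp, which anchors basement membranes to connective tissue, had a log2 fold change of -0.87 (SE 0.165), from 88.0 ± 5.61 to 48.0 ± 9.02 CPM. Its treated libraries stood at 52.9, 52.2, 52.4 and 34.5 CPM, the lowest in batch P19. Omd, first described in bone, went from 28.4 ± 2.26 to 9.72 ± 1.62 CPM, a log2 fold change of -1.54 (SE 0.249). Lum rested on few reads, with 17 to 25 counts in the controls and 0 to 10 under PDGF-BB, and had a log2 fold change of -2.37 (SE 0.715). It was -3.95 without the P18 treated library, which held the 10 counts.

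Ogn, a secreted regulator of collagen fibrils that vascular smooth muscle is known to make, had the lowest fitted value among the 8, except that Lum was lower when the P18 treated library was left out. It stood at 211, 235, 217 and 175 CPM without treatment and at 24.3, 31.7, 29.6 and 25.7 CPM under PDGF-BB, 13.3% of the control mean and a log2 fold change of -2.91 (SE 0.255). The groups did not overlap. Epyc, known from growth plate cartilage, went from 1.32 ± 0.227 to 0.238 ± 0.106 CPM, which is 2 to 6 counts a library, with a log2 fold change of -2.43 (SE 0.443). In the same libraries the summed level of the 6 fibroblast markers was 284 to 350.3 CPM against 170.5 to 213 in controls, with Cd34 and Tcf21 at 3 counts or fewer. Ly6a held most of that sum (249.6 against 134 CPM) and passed only with a replicate block (edgeR adjusted p = 0.171, and 0.0422 with the block). Pi16 was higher and passed only without the block (log2 fold change 0.57, edgeR adjusted p = 0.0466, and 0.055 with it). Pdgfra fell (-2.27, edgeR adjusted p = 0.00619, and 1.93e-06 with the block). The 6 smooth muscle markers summed to 192 to 218 CPM against 238 to 271, with Acta2 lower (-0.94, edgeR adjusted p = 2.15e-05) and Smtn higher (1.03, edgeR adjusted p = 1.78e-08). The endothelial marker Pecam1 fell from 1.19 to 0.372 CPM (edgeR adjusted p = 0.0397). The 5 chondrocyte and bone markers summed to 55.4 to 67.0 CPM against 65.9 to 84.8, with Sox9 at 62.5 against 74.6 CPM (edgeR adjusted p = 0.0568, and 0.000186 with a replicate block). The part of these markers in the result was not tested.

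**Figure D2:**
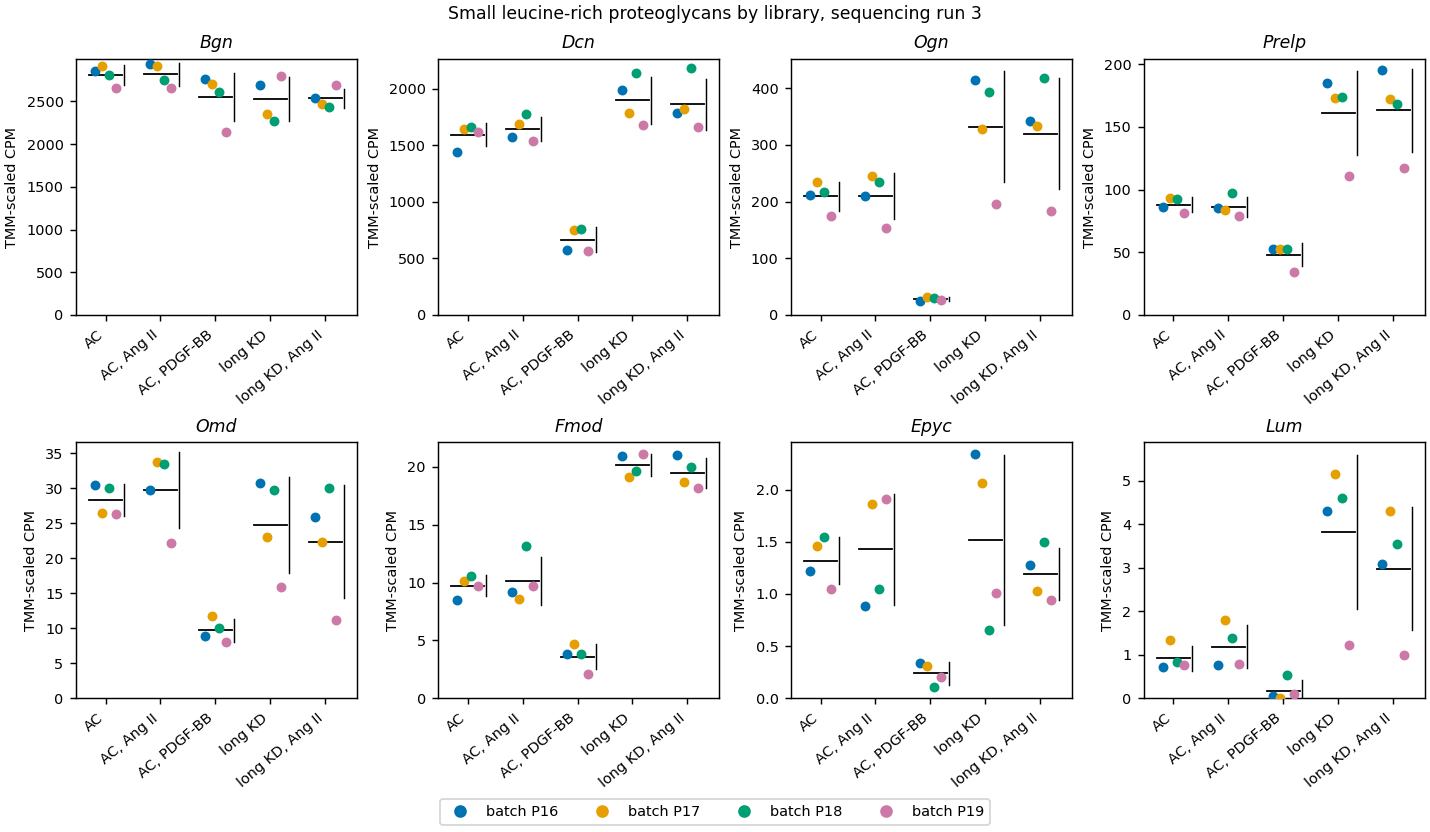
TMM-scaled CPM of the 8 tested genes in each library of run 3, by group and coloured by batch (AC, antisense control; KD, knockdown; horizontal bar, mean; vertical bar, SD; n = 4). Ogn, Dcn, Omd and Fmod sit low under PDGF-BB, Prelp and Fmod sit high in both long knockdown groups, and P19 (pink) is the lowest long knockdown library for Ogn, Prelp, Omd and Lum.

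Related genes gave mixed values under PDGF-BB. Of 7 other small leucine-rich proteoglycan genes, 3 were tested (not Optc, Chad, Nyx or Podnl1). Ecm2, which lies beside Aspn on chromosome 13, stood at 1.33 ± 0.751 CPM against 4.49 ± 0.733 and was called lower (log2 fold change -1.74, SE 0.356; edgeR adjusted p = 0.00057). Tsku (tsukushi, a secreted signalling modulator) stood at 21.3 ± 0.706 and 19.8 ± 1.69 CPM (edgeR adjusted p = 0.339), and Podn (podocan) was below 1 CPM in both groups (0.231 and 0.374, edgeR adjusted p = 0.261).

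Lists of enzymes and binding partners are set against the same shares of all genes, 23.6% called higher and 20% lower under PDGF-BB, and with few genes in a list nothing is read from counts near those shares. Of 6 genes that make the linker to the protein core, 2 rose and 1 fell: B4galt7, the first galactosyltransferase of the linker, rose (log2 fold change 0.56, edgeR adjusted p = 0.000159), and the xylosyltransferase Xylt2 fell (-0.35, edgeR adjusted p = 0.0104). Of 12 tested chondroitin and dermatan sulfate enzymes, 4 rose and 1 fell, with the chondroitin synthase Chsy1 at 0.53 (edgeR adjusted p = 2.41e-05) and the sulfotransferase Chst11 at -0.61 (edgeR adjusted p = 0.00234). Of 3 tested keratan sulfate enzymes 2 rose, the galactose sulfotransferase Chst1 from 10.5 to 28.8 CPM (log2 fold change 1.46, edgeR adjusted p = 1.8e-08). Of 4 tested genes of propeptide processing 2 rose, with Pcolce2, an enhancer of procollagen C-proteinase, at 1.60 (edgeR adjusted p = 0.00355). The medians were -0.07, 0.11, 0.68 and 0.35 in this order, against -0.02 for all genes.

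Among binding partners, of 10 collagens 2 rose and 1 fell: Col1a1 rose from 2149 to 3016 CPM (log2 fold change 0.49, edgeR adjusted p = 0.00077), and Col14a1, a fibril-associated collagen, fell from 327 to 136 CPM (-1.26, edgeR adjusted p = 0.000684). With batch as a replicate block 3 of the 10 rose and 2 fell, where 8238 of 15103 genes were called in either direction. Of 12 receptors and ligands 2 rose and 5 fell, with the hyaluronan receptor Cd44 at 1.32 (edgeR adjusted p = 2.81e-09) and Egfr, to which decorin binds, at -0.69 (edgeR adjusted p = 9.73e-08).

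Knockdown of long CASC15 in untreated cells raised 4 of the 8 genes, Lum, Fmod, Ogn and Prelp, and lowered none, where 12.3% of all genes were called higher and 12.8% lower. The median log2 fold change was 0.46, against 0.02 for all genes. This comparison shares its control libraries with that of PDGF-BB. Fmod stood at 20.9, 19.1, 19.6 and 21.1 CPM under knockdown (P16 to P19), above every control (8.48 to 10.6 CPM). Its log2 fold change of 1.05 (SE 0.159, edgeR adjusted p = 5.89e-05) had batch values of 0.88 to 1.29. Prelp stood at 185, 173, 174 and 111 CPM against 81.0 to 93.0 in controls, again without overlap (log2 fold change 0.87, SE 0.163, edgeR adjusted p = 0.000681).

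Lum, which organises collagen fibrils of cornea and skin, went from 0.714, 1.35, 0.848 and 0.779 CPM to 4.30, 5.17, 4.62 and 1.22 CPM. The ranges overlapped through the P19 knockdown library, and the log2 fold change was 2.06 (SE 0.532, edgeR adjusted p = 0.00727). Ogn stood at 414, 328, 393 and 195 CPM under knockdown, with P19 inside the control range (175 to 235 CPM). Its log2 fold change of 0.67 (SE 0.233) passed narrowly (edgeR adjusted p = 0.0443), and the adjusted p was 0.127 with no filter on low counts, 0.0536 with only these groups in the fit and 7.09e-05 without P19. Leaving out any 1 of the 4 control libraries or of the knockdown libraries P16 to P18 also ended the call (edgeR adjusted p from 0.0573 to 0.139). Within batches P16 to P19 the log2 ratios of Ogn were 0.97, 0.48, 0.85 and 0.16.

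The remaining members did not pass the test. Dcn stood at 1897 ± 205 CPM against 1592 ± 102 (log2 fold change 0.25, edgeR adjusted p = 0.0855), with no overlap between the groups. It was called higher with batch as a replicate block (edgeR adjusted p = 0.00435) and without P19 (0.31, edgeR adjusted p = 0.0419). With the replicate block 5 of the 8 genes were called higher and 0 lower, where 20% of all genes were called higher and 20.6% lower. Bgn had a log2 fold change of -0.15 (edgeR adjusted p = 0.167), and was called lower without P19 (-0.24, edgeR adjusted p = 0.00146); its batch values were -0.09, -0.31, -0.31 and 0.08. Omd was at 24.8 ± 6.88 CPM against 28.4 ± 2.26 (log2 fold change -0.19, edgeR adjusted p = 0.594), and Epyc at 1.51 ± 0.81 against 1.32 ± 0.227 (0.21, edgeR adjusted p = 0.712). Of the other family members, Ecm2 rose from 4.49 to 9.35 CPM (log2 fold change 1.06, edgeR adjusted p = 0.017), Tsku was at 0.05 (edgeR adjusted p = 0.738) and Podn at 0.83 (edgeR adjusted p = 0.235).

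Markers of other cell types moved with the knockdown. The 6 fibroblast markers summed to 80.5 to 113 CPM against 170.5 to 213 in controls: Ly6a fell (log2 fold change -1.95, edgeR adjusted p = 0.0139), Pi16 fell (-1.83, edgeR adjusted p = 2.23e-05), Pdgfra rose (1.66, edgeR adjusted p = 0.0291), and Tcf21 was at 3 counts or fewer. The 5 chondrocyte and bone markers summed to 105 to 142 CPM against 65.9 to 84.8, with Sox9 higher by 0.76 (edgeR adjusted p = 2.45e-05) and Ibsp at 3 counts or fewer. The 6 smooth muscle markers summed to 230.4 to 328 CPM against 238 to 271. Myh11 (0.0639 to 0.939 CPM, edgeR adjusted p = 0.000764, 3 counts or fewer in controls) and Smtn (46.7 to 70.8 CPM, edgeR adjusted p = 4.86e-05) rose. Acta2 (-0.07, edgeR adjusted p = 0.738), Tagln (0.04, edgeR adjusted p = 0.958) and Lmod1 (0.46, edgeR adjusted p = 0.446) did not pass. The endothelial marker Vwf rose (0.144 to 0.688 CPM, edgeR adjusted p = 0.0165), while Pecam1 did not pass (0.34, edgeR adjusted p = 0.696). The part of these markers in the result was not tested.

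The lists of enzymes and partners are again read against all genes, of which 12.3% were called higher and 12.8% lower (20% and 20.6% with a replicate block). Under long knockdown Xylt1, which starts the chains, rose alone of 6 linker genes (log2 fold change 1.93, edgeR adjusted p = 0.0107; with a replicate block 1 rose and 1 fell). Of 12 chondroitin and dermatan sulfate enzymes 2 fell, Chst7 by 0.89 on the log2 scale (edgeR adjusted p = 0.0448), and with a replicate block 2 rose and 3 fell. The keratan sulfate enzyme Chst2 rose from 0.948 to 5.52 CPM (log2 fold change 2.55, edgeR adjusted p = 0.000248; with a replicate block 1 of 3 rose and 1 fell). Of 4 propeptide processing genes 2 fell, Pcolce2 by 1.26 on the log2 scale (edgeR adjusted p = 0.0479). Of 10 collagens 4 rose and 4 fell, between Col3a1 at 1.67 (edgeR adjusted p = 0.00624) and Col1a2 at -1.76 (edgeR adjusted p = 3.09e-09). Of 12 receptors and ligands 2 rose and 1 fell, with Igf1r, a receptor bound by decorin, at 2.61 (edgeR adjusted p = 1.09e-11) and Met at -0.64 (edgeR adjusted p = 6.26e-05).

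**Figure D3:**
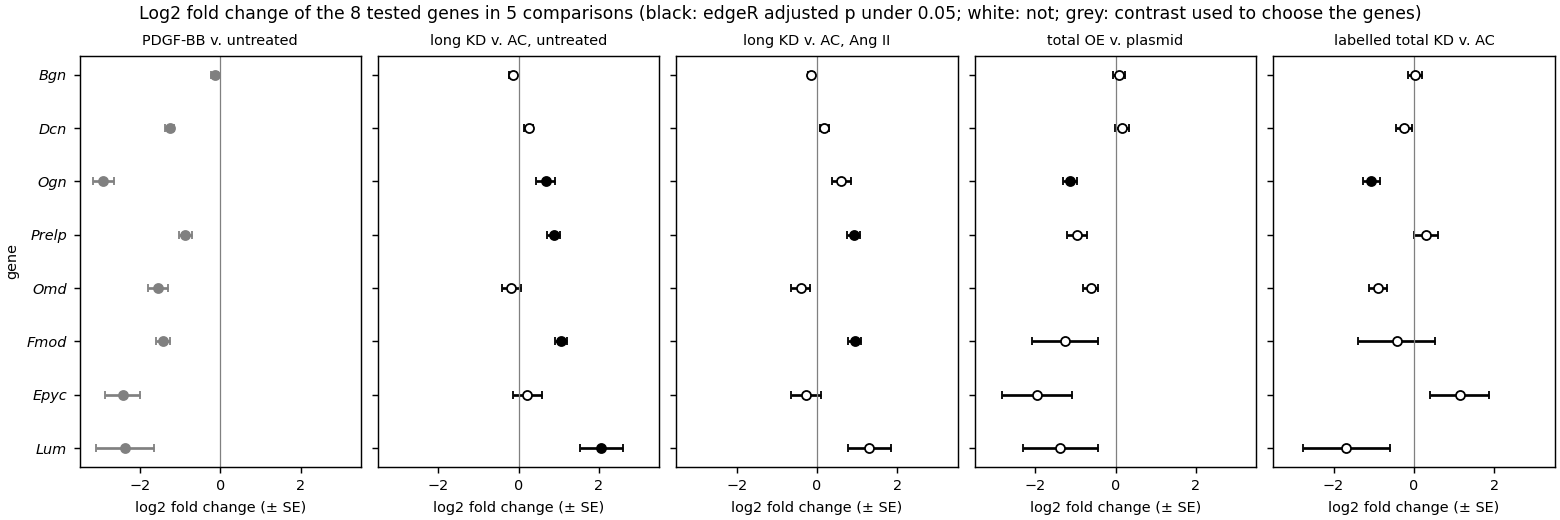
Log2 fold change (horizontal axis, ± SE) of the 8 tested genes in 5 comparisons (AC, antisense control; KD, knockdown; OE, overexpression; black, edgeR adjusted p under 0.05; white, not; grey, the comparison used in choosing the genes). Fmod and Prelp are black in both long knockdown panels, Ogn is black in 3 panels, and Bgn lies between -0.15 and 0.08 in each.

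Under angiotensin II, the same knockdown raised 2 of the 8 genes and lowered 0, where 13.4% of all genes were called higher and 13.3% lower. Fmod stood at 21.0, 18.7, 20.0 and 18.2 CPM against 9.18, 8.58, 13.2 and 9.68 in treated controls (log2 fold change 0.94, SE 0.16, edgeR adjusted p = 0.000206). Prelp stood at 195, 172, 168 and 117 CPM against 85.6, 83.5, 97.6 and 79.0 (0.91, SE 0.164, edgeR adjusted p = 0.000432). For both genes every knockdown library lay above every control. Ogn stood at 342, 334, 419 and 184 CPM against 210.1, 245, 234 and 154, overlapping through P19 (0.60, SE 0.233, edgeR adjusted p = 0.0663). Lum was at 2.98 ± 1.42 CPM against 1.19 ± 0.507 (edgeR adjusted p = 0.0754). Without the P19 knockdown library both passed (edgeR adjusted p = 0.00737 for Ogn and 0.0196 for Lum).

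With batch as a replicate block, 5 genes were called higher and 1 lower under angiotensin II, where 20.4% and 20.9% of all genes were. The added calls were Lum (edgeR adjusted p = 0.0101), Ogn (edgeR adjusted p = 0.00754) and Dcn (0.18, edgeR adjusted p = 0.0366) as higher and Omd as lower (-0.45, edgeR adjusted p = 0.0333); without the block Omd had -0.41 (edgeR adjusted p = 0.214) and Dcn 0.18 (edgeR adjusted p = 0.218). Bgn was at -0.15 (edgeR adjusted p = 0.162) and at -0.22 without P19 (edgeR adjusted p = 0.00321). Epyc was at -0.27 (edgeR adjusted p = 0.635). Ecm2 rose by 1.07 (edgeR adjusted p = 0.0179) on the log2 scale, Podn rose from 0.157 ± 0.0972 CPM (1 to 5 counts a library) to 0.574 ± 0.096 CPM (9 to 14 counts; edgeR adjusted p = 0.0133), and Tsku was at -0.06 (edgeR adjusted p = 0.671).

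The lists around the family had these called extremes under angiotensin II, against shares of 13.4% higher and 13.3% lower over all genes (20.4% and 20.9% under the replicate block). Xylt1 rose by 2.48 (edgeR adjusted p = 0.00323) and B4galt7 fell by 0.29 (edgeR adjusted p = 0.0395) on the log2 scale, the 2 calls among 6 linker genes. Chpf, a chondroitin polymerising factor, was the 1 call of 12 (-0.46, edgeR adjusted p = 0.00385; with a replicate block 1 rose and 2 fell), Chst2 the 1 call of 3 (1.88, edgeR adjusted p = 0.00321; with a replicate block 1 rose and 1 fell) and Pcolce the 1 call of 4 (-0.37, edgeR adjusted p = 8.3e-05; with a replicate block 2 fell). Collagens again had 4 rises and 4 falls of 10, with Col3a1 at 1.79 (edgeR adjusted p = 0.00399) and Col1a2 at -1.63 (edgeR adjusted p = 6.03e-09). Of 12 receptors and ligands 3 rose and 1 fell, with Igf1r at 2.75 (edgeR adjusted p = 5.12e-12) and Met at -0.71 (edgeR adjusted p = 2.1e-05). Fibroblast markers summed to 88.3 to 114 CPM against 176 to 229, with Ly6a (-2.02, edgeR adjusted p = 0.0112) and Pi16 (-1.80, edgeR adjusted p = 2.5e-05) lower and Pdgfra higher (1.76, edgeR adjusted p = 0.022). Smtn (50.0 to 73.9 CPM, edgeR adjusted p = 0.000103), Myh11 (0.158 to 0.685 CPM, edgeR adjusted p = 0.0344) and Vwf (0.0771 to 0.842 CPM, edgeR adjusted p = 0.00159) rose. Acta2 (-0.01, edgeR adjusted p = 0.967) and Lmod1 (0.27, edgeR adjusted p = 0.678) did not pass. Tagln (1.20, edgeR adjusted p = 0.0652) and Pecam1 (1.11, edgeR adjusted p = 0.163) passed only with a replicate block (edgeR adjusted p = 0.0293 and 0.0328). Smooth muscle markers summed to 252 to 334 CPM against 242 to 284. Chondrocyte and bone markers summed to 106 to 139.6 against 67.2 to 84.4; their part in the result was not tested.

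Angiotensin II itself moved none of the 8 genes past the test. In control cells edgeR called 0% of genes and 0 members, with 0 members and 156 of 15103 genes at an unadjusted p under 0.05, and DESeq2 called 0 members and 1 gene. In long knockdown cells edgeR again called 0% and 0 members (0 members and 174 genes unadjusted; DESeq2 0 members and 0 genes). The interaction of angiotensin II and knockdown had 0% of genes and 0 members called (0 members and 166 genes unadjusted; DESeq2 0 members and 1 gene). Member log2 fold changes ran from -0.03 (Prelp) to 0.40 (Lum, SE 0.558) in control cells. For the abundant genes the estimates were tight: Dcn at 0.04 (SE 0.105) and Bgn at 0.00 (SE 0.0791). Ogn averaged 211 ± 40.5 CPM with angiotensin II and 209 ± 25.2 without (log2 fold change 0.01, SE 0.233).

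Overexpression of total CASC15 lowered Ogn and raised none of the 8 genes, where 0.554% of all genes were called lower and 1.09% higher. Ogn stood at 402, 381 and 462 CPM with the control plasmid (P17 to P19) and at 204, 186 and 175 CPM with overexpression, so the groups did not overlap. Its log2 fold change was -1.14 (SE 0.174, edgeR adjusted p = 0.0136), with batch values of -0.98, -1.03 and -1.40. Leaving out the P18 overexpression library ended the call (edgeR adjusted p = 0.0756). The other genes did not pass in this fit. Fmod stood at 30.2, 23.9 and 5.05 CPM with the plasmid and 16.6, 6.94 and 1.20 CPM with overexpression, lower in each batch but with P19 lowest in both groups (-1.26, edgeR adjusted p = 0.507). Its value ran from -2.30 without the P17 overexpression library to -0.75 without that of P19. Prelp went from 168, 175 and 118 to 97.5, 91.5 and 48.0 CPM without overlap (-0.96, SE 0.248, edgeR adjusted p = 0.104), and it passed without the P19 plasmid library (edgeR adjusted p = 0.0375).

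Lum stood at 3.20, 1.71 and 0.227 CPM with the plasmid and 1.05, 0.897 and 0.0520 CPM with overexpression (log2 fold change -1.37, edgeR adjusted p = 0.53), and its value ran from -1.89 without the P17 overexpression library to -0.55 without the P17 plasmid library. Omd stood at 16.5, 17.1 and 22.9 against 12.7, 14.1 and 9.98 CPM, without overlap (-0.62, edgeR adjusted p = 0.154). With batch as a replicate block, 5 genes were called lower and 0 higher, where 8.33% and 9.4% of all genes were. The added calls were Prelp (edgeR adjusted p = 6.17e-05), Fmod (-1.40, edgeR adjusted p = 0.00322), Lum (-1.35, edgeR adjusted p = 0.0236) and Omd (-0.61, edgeR adjusted p = 0.0304). Dcn (0.16, edgeR adjusted p = 0.705) and Bgn (0.08, edgeR adjusted p = 0.849) had positive values in P17 and P18 and negative ones in P19. Epyc was at 1 count in each overexpression library and at 1 to 7 counts with the plasmid.

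**Figure D4:**
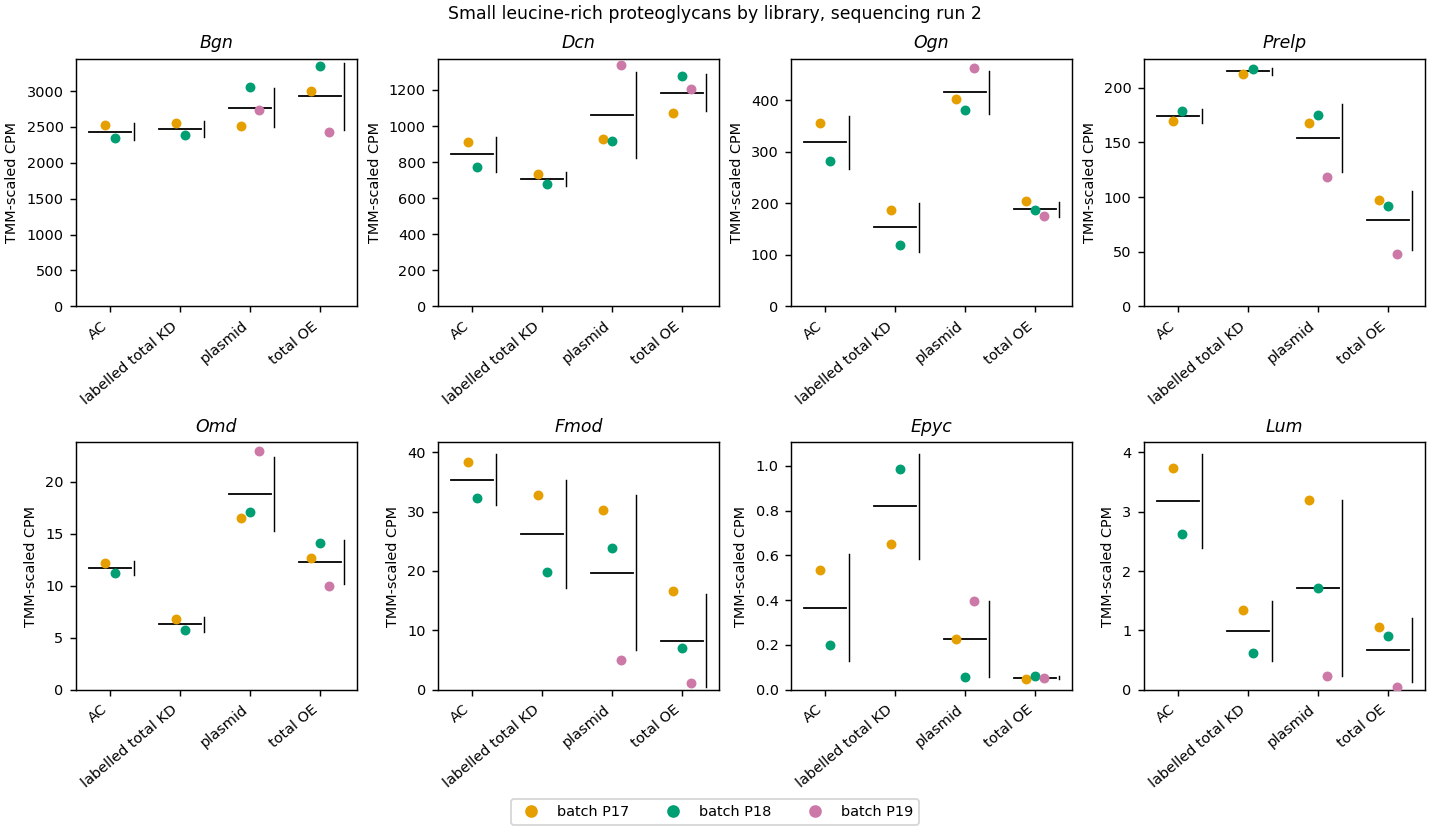
TMM-scaled CPM of the 8 tested genes in each library of run 2, by group and coloured by batch (AC, antisense control; KD, knockdown; OE, overexpression; horizontal bar, mean; vertical bar, SD; n = 2, 2, 3 and 3). Ogn is lower with overexpression (175 to 204 CPM) than with the plasmid (381 to 462 CPM), and P19 (pink) is the lowest library of both plasmid groups for Fmod, Prelp and Lum.

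Ecm2, Tsku and Podn had log2 fold changes of -0.14, 0.26 and -0.03 with overexpression and none passed (edgeR adjusted p = 0.814, 0.387 and 0.986). Of 12 receptors and ligands 3 rose and 0 fell, with Tlr2, a receptor for soluble biglycan, from 22.7 to 93.5 CPM (log2 fold change 2.05, edgeR adjusted p = 0.00106). The other 5 lists of enzymes and collagens had 0 calls, where 1.09% of all genes were called higher and 0.554% lower. With a replicate block (9.4% and 8.33% of all genes) 5 receptors and ligands rose and 3 fell, 2 collagens fell, and in the lists of chondroitin and dermatan sulfate, keratan sulfate and propeptide processing 1 rose and 1 fell. The 6 fibroblast markers summed to 359 to 673 CPM with overexpression and 64.1 to 312 with the plasmid, with Ly6a holding most of the sum (485 against 149 CPM, edgeR adjusted p = 0.344) and Tcf21 at 3 counts or fewer. With a replicate block Pdgfra was called higher (edgeR adjusted p = 0.00127), and Pi16 (edgeR adjusted p = 0.0165) and Sox9 (edgeR adjusted p = 0.000718) lower. The part of these markers in the result was not tested.

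In the libraries labelled total CASC15 knockdown, where the target was not lower, Ogn was the 1 gene called lower and 0 were called higher, where 0.56% of all genes were called lower and 1.5% higher. Ogn stood at 187 and 119 CPM (P17 and P18) against 355 and 282 in the antisense controls (log2 fold change -1.06, SE 0.213, edgeR adjusted p = 0.0393). The call ended with genes kept at a mean CPM of at least 1 (edgeR adjusted p = 0.0542) and without either control library (edgeR adjusted p = 0.25 without P17 and 0.142 without P18) or the P18 knockdown library (edgeR adjusted p = 0.316). Omd stood at 6.82 and 5.78 against 12.2 and 11.2 CPM (-0.89, edgeR adjusted p = 0.0918), Lum at 1.35 and 0.627 against 3.74 and 2.62 (-1.68, edgeR adjusted p = 0.608), and Prelp at 213 and 217 against 169.8 and 179 (0.30, edgeR adjusted p = 0.762). With batch as a replicate block 3 genes were called lower and 0 higher, where 5.63% and 8.76% of all genes were: Ogn (edgeR adjusted p = 0.00113), Lum (-1.72, edgeR adjusted p = 0.00875) and Omd (-0.89, edgeR adjusted p = 0.0198).

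Dcn, Bgn, Fmod and Epyc had log2 fold changes of -0.25, 0.02, -0.43 and 1.14 in these libraries, and none passed (edgeR adjusted p = 0.697, 0.988, 0.923 and 0.604). With single libraries left out Epyc, at 4 to 22 counts, ran from 0.60 (without the P18 control) to 2.01 (without the P17 control). Over all alternatives Fmod ran from -0.84 to -0.11 and Lum from -2.34 to -1.23. Ecm2 (-0.79, edgeR adjusted p = 0.241), Tsku (0.33, edgeR adjusted p = 0.423) and Podn (1.64, edgeR adjusted p = 0.197) did not pass, and with a replicate block Ecm2 was called lower (edgeR adjusted p = 0.0392) and Tsku higher (edgeR adjusted p = 0.0472). Tll2, a protease related to Bmp1, was the 1 call among 5 propeptide processing genes (edgeR adjusted p = 0.027), at 1.84 CPM against 0.0223, below the 3 counts (0.134 to 0.148 CPM) that a count of 0 allows in these controls. The other 5 lists had 0 calls, where 1.5% of all genes were called higher and 0.56% lower. With a replicate block (8.76% and 5.63% of all genes) 2 processing genes rose, 1 collagen rose and 5 fell, 2 receptors and ligands rose and 4 fell, and 1 chondroitin and dermatan sulfate enzyme fell. The leukocyte marker Cd68 stood at 15.8 ± 0.181 CPM against 0.43 ± 0.23 (edgeR adjusted p = 0.00576), while Ptprc, Adgre1 and Cd3e were at 3 counts or fewer. Myh11 was also higher (0.989 to 5.49 CPM, edgeR adjusted p = 0.0239). With a replicate block Pdgfra was called lower (edgeR adjusted p = 0.000774), and Vwf (edgeR adjusted p = 0.0163), Pecam1 (edgeR adjusted p = 0.0261) and Col2a1 (edgeR adjusted p = 0.0418) higher. The part of these markers in the result was not tested.

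Between the control plasmid and the control antisense oligonucleotide, edgeR called 0 members, where 1.15% of all genes were called higher and 0.0261% lower with the plasmid. At an unadjusted p under 0.05 there was 1 member, and DESeq2 called 0. Ogn averaged 415 ± 41.8 CPM with the plasmid (n = 3) and 319 ± 51.8 with the oligonucleotide (n = 2), a log2 fold change of 0.38 (edgeR adjusted p = 0.573). Omd had the largest SE-scaled difference, 18.8 ± 3.54 against 11.7 ± 0.738 CPM (0.69, SE 0.21, edgeR adjusted p = 0.318).

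Across the 20 libraries of run 3, patterns were compared by Pearson r of log2 CPM, a description over libraries that share runs and groups, with the PDGF-BB libraries apart from the rest. No r was computed without those libraries, so it cannot be told how much of each value comes from them. Dcn and Ogn had r = 0.982 and Fmod and Prelp r = 0.954, and Bgn had r from -0.186 to 0.269 with the other 7 genes. Among 10573 genes with a mean of at least 5 CPM, the 3 most like Ogn were Tcp11l2 (0.989), Ctsf (0.985) and Gramd3 (0.984). The closest to Dcn was Sox4 (0.985), to Prelp Rere (0.992), to Fmod Foxn3 (0.983), to Lum Ppp2r3a (0.952), to Epyc Hbp1 (0.903) and to Bgn Fstl1 (0.878).

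Most members lie beside one another in the genome, by RefSeq order. Ecm2, Aspn, Omd and Ogn follow each other on chromosome 13, Dcn, Lum, Kera and Epyc on chromosome 10, and Optc, Prelp and Fmod on chromosome 1, while Bgn is on chromosome X. Neighbours had like values in some places and not in others. Prelp and Fmod both rose under long knockdown, by 0.87 and 1.05 on the log2 scale in untreated cells and by 0.91 and 0.94 under angiotensin II. Under long knockdown of untreated cells Ogn and Ecm2 rose while Omd was at -0.19, and Lum rose while Epyc was at 0.21 on the log2 scale (differences between genes not tested). Exons of Prelp overlap those of Gm15851, exons of Epyc those of Gm10754 and exons of Aspn those of Cenpp, and without stated strandedness reads of such pairs cannot be told apart. Ogn, Omd and Ecm2 also lie within the span of Cenpp, on the other strand and without overlapping exons. Whether reads of Cenpp were counted for them was not tested.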

How the data were processed

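Total RNA of 30 libraries was sequenced as paired reads, per the labels' protocols. The authors deposited expected counts per gene, estimated by RSEM 1.3.1 with STAR 2.7.11b, per the submitters' processing notes, which name the builds GRCm39 and mm10; strandedness is not given in the sources used here. RSEM divides reads that fit several genes, so counts of overlapping genes are estimates. Of 78334 identifiers, 51486 had a symbol in GENCODE M21 and held 98.7% of counts. Neighbours and promoter sequences came from RefSeq (GRCm38.p6).

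Expected counts were rounded to whole numbers and each run fitted on its own with edgeR 4.0.16 in R 4.3.3 (filterByExpr with a minimum count of 10 and a total of 15, TMM scaling, quasi-likelihood test, Benjamini-Hochberg over all genes, threshold 0.05, no block). This left 15350 genes in run 2 and 15103 in run 3. "Called" means past that threshold, and CPM are TMM-scaled. The main fit was tested on simulated counts without batch differences, for long knockdown in untreated cells and for overexpression only. The alternative fits were not tested in this way. Alternatives were DESeq2 1.42.0, other size factors, other filters, only the groups compared, batch as a replicate block, and libraries left out. Library totals of 15771489 to 30362053 leave genes of a few counts imprecise. No 2 libraries of a group agreed within sampling noise (chi-square per degree of freedom from 4.37).

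Batch labels run with replicate numbers, so the numbers pair libraries across groups by the labels. After removing group means, same-batch libraries had a mean correlation of 0.168 to 0.499 over the comparisons, and other pairs -0.253 to -0.0559. Removing group means by itself gives other pairs the opposite sign, so their negative values are no separate sign of pairing.

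The members and the gene lists were chosen with earlier results of these data known. Named were all 10 members, all tested genes among the other small leucine-rich proteoglycans, and from each other list the called gene with the largest rise and with the largest fall. In likeness, named were the 3 genes most like Ogn and the 1 most like each other member, except for Omd, where it is not reported here.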

Additional observations from a re-analysis of the deposited data

Results flagged for a closer look

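In 2 of the 45 sets of 4 libraries tested (1 gene in 1 group), a library stood apart from the other 3 by a gap test that flags about 1 set in 20 by chance. Both were Prelp in batch P19. Under PDGF-BB the P19 library held 34.5 CPM and the others 52.2 to 52.9 CPM, a gap of 0.961 of the group's range. Under long CASC15 knockdown without treatment it held 111 CPM and the others 173 to 185 CPM, a gap of 0.832 of the range, just over the critical value.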

How the results depend on the processing

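Fold changes of members kept their direction in each alternative run, where they or the main value were called. For long knockdown under angiotensin II, 2 genes were called in the main fit, 4 with DESeq2, 6 with batch as a replicate block and 6 without batch P19 (an alternative chosen after seeing the data), and 2 to 4 with a single library left out. For overexpression, 1 gene was called in the main fit, 2 with DESeq2, 3 with no filter on low counts, 5 with the replicate block, 2 without P19, and 0 to 2 with a library left out. For the libraries labelled total CASC15 knockdown, 1 gene was called in the main fit, 2 with DESeq2, 3 with no filter, 0 with a mean CPM of at least 1, 2 with only the groups compared, 3 with the replicate block, 2 without P19, and 0 to 1 with a library left out, where the lone library of a group is assumed to vary like the other groups. Between the 2 kinds of control, 0 were called in the main fit and 1 with no filter. The causes were not tested. For long knockdown without treatment, 3 to 5 genes were called with a library left out. For PDGF-BB 7 were called in each, but that comparison was used in choosing the genes, so nothing is read from this count. The replicate block changed no member's call beyond those given in the report. Other scalings moved the median of all genes by at most 0.02 on the log2 scale. Depth limits Lum, Epyc, Aspn and Kera.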
